A study of Mus musculus musculus x Mus musculus castaneus with 8 samples.

Results

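The comparison described here is between tail fibroblasts that received 5azadC and VX680 together and tail fibroblasts that received 5azadC only, so that the added agent is VX680. It sets 4 of the 8 libraries of the series against each other, 2 in each group. All 24421 genes of the deposited count table were taken, of which 12643 had enough reads to be tested. The fit took in all 8 libraries, so the VX680 and untreated libraries also enter the spread behind each p-value. The cells came from a female F1 hybrid of Mus musculus musculus and Mus musculus castaneus, called mus and cas below, whose alleles differ in sequence. Cells grew for 72 h after plating, and the agents were given 24 h after plating. One group received 5azadC (5-aza-2'-deoxycytidine) plus VX680, and it was set against the group that received 5azadC only. Both groups therefore share the methylation inhibitor. Cells with VX680 alone and untreated cells, which had solvent (DMSO) only, gave the effect of VX680 in the absence of 5azadC. DMSO volume was matched over all groups. Total RNA was sequenced with strand-marked libraries. The labels name no number of animals and do not say whether the 2 replicates of a group were separate cultures, so p-values measure only the spread between these libraries, which may be technical. The series title puts the question as a joint action of DNA methylation and Aurora kinases in silencing of the X chromosome.

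VX680 (tozasertib) blocks the Aurora kinases. Aurora A matures the centrosome and builds the spindle, while Aurora B, bound to INCENP, survivin and borealin in the chromosomal passenger complex, corrects faulty attachment of chromosomes and is needed for cytokinesis. Cells without Aurora B activity can leave mitosis without dividing, become polyploid and engage p53. The nucleoside 5azadC is built into DNA during replication and traps DNA methyltransferases there, so that methylation is lost as cells divide. In fibroblasts such loss is known to wake silent genes and to raise interferon-stimulated genes. Both agents act on protein or DNA, so no transcript level checks directly that they worked.

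Libraries held 6908503 and 6946619 reads in genes with both drugs and 9189904 and 7698496 with 5azadC, and 7209664 to 11169532 in the other 4. The 2 libraries of the 5azadC group stood apart from each other. The squared differences of their counts were 20.9 times what counting error gives (chi-square per degree of freedom). This ratio of squares was 2.80 for 5azadC+VX680, 3.11 for VX680 and 7.81 for untreated libraries. Levels below are CPM (read counts scaled to a common, TMM-normalized library size) in replicates 1 and 2 of a group, and changes, also where a gene rose or fell by a value, are log2 ratios of 5azadC+VX680 over 5azadC ± SE. All 8 fibroblast markers were tested. Their summed level was 11730 and 11500 CPM with both drugs, against 18390 and 22720 CPM with 5azadC, and 5 of the 8 (Col1a1, Col1a2, Col3a1, Pdgfra and Pdgfrb) fell while Vim, Thy1 and S100a4 were not called. S100a4 was called higher in 5 of 14 other settings (no filter, DESeq2, limma on the authors' signal, a replicate block, and without 5azadC replicate 2), and Thy1 in 2 of them (limma, and without 5azadC replicate 2). Markers of keratinocytes summed to at most 2.34 CPM in these 4 libraries, of skeletal muscle to at most 2.39 CPM with Pax7 at 0, of melanocytes to at most 2.48 CPM with Tyr at 0, and of Schwann cells to at most 6.47 CPM. Leukocyte markers summed to 26.0 and 19.7 CPM with both drugs, against 16.4 and 21.3 CPM with 5azadC, mostly from Cd68. Chondrocyte markers, with Acan at 0, summed to 22.1 and 18.8 CPM with both drugs, against 30.7 and 26.5 CPM with 5azadC. Adipocyte markers summed to 102 and 109.8 CPM with both drugs, against 83.8 and 99.6 CPM with 5azadC, and endothelial markers to 196 and 175 CPM with both drugs, against 232 and 218 CPM with 5azadC. Simple epithelial markers stood higher with both drugs, at 74.5 and 81.7 CPM, against 26.9 and 15.2 CPM with 5azadC. What part other cells have in the results was not tested.

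Adding VX680 to 5azadC raised 1262 genes and lowered 1877 genes (edgeR quasi-likelihood test, Benjamini-Hochberg adjusted p under 0.05), which is 9.98% and 14.8% of the genes tested. Of these, 373 rises and 452 falls were at least 2-fold. Groups did not overlap, with both 5azadC+VX680 libraries above both 5azadC libraries, in 30.0% of genes, and lay the other way round in 31.4%. Counts of called or non-overlapping genes in the lists below stand beside these shares of all genes. The main groups that fell were matrix genes, interferon-stimulated genes, clustered histone genes and cholesterol synthesis genes, and mitotic genes rose. In bulk RNA, fewer cells of a type and less RNA per cell cannot be told apart. Without 5azadC+VX680 replicate 1, 581 genes rose and 1134 fell, and without 5azadC+VX680 replicate 2, 571 rose and 1058 fell. The balance of the calls depends on scaling: rises were 40.2% and falls 59.8% of calls, but 58.9% and 41.1% with limma on the authors' normalized signal, which put the median change of all genes at 0.10 against -0.00 in the edgeR fit.

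**Figure D1:**
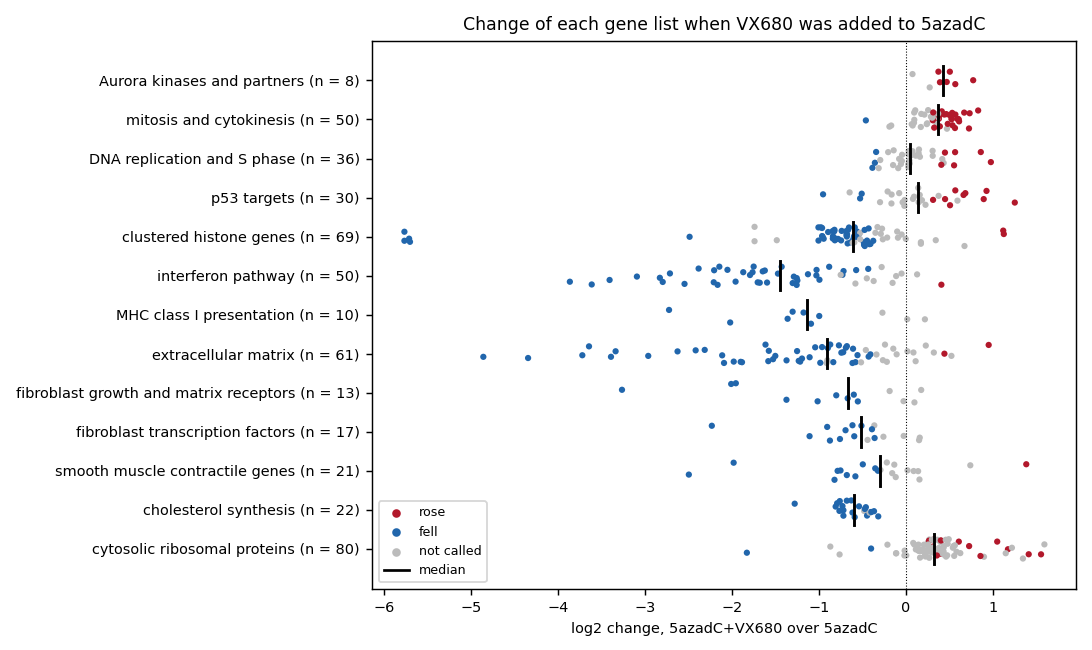
Log2 change of 5azadC+VX680 over 5azadC (horizontal axis) for each tested gene of 13 lists, 1 point per gene, red where it rose, blue where it fell and grey where it was not called; black bars are list medians. Interferon (median -1.45) and matrix genes (-0.90) lie to the left and mitotic genes (0.38) to the right, while the median over all genes is close to 0.

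Transcripts of the drug's target kinases and their partners stood higher with both drugs than with 5azadC. Of 8 tested genes of this list, 6 rose and none fell, with a median of 0.43 against -0.00 over all genes. Aurka, which encodes Aurora A, had 166 and 164 CPM in 5azadC+VX680 libraries, against 101 and 91.2 CPM in 5azadC libraries (log2 change 0.77 ± 0.10, adjusted p = 0.000114). The groups did not overlap, and the 2 libraries of each lay close together. Aurkb, which encodes Aurora B, had 123 and 118 CPM with both drugs, against 95.5 and 90.4 CPM with 5azadC. Its log2 change was 0.38 ± 0.10 (adjusted p = 0.0182), and 0.34 to 0.48 over the 14 other settings. The Aurkb call was lost without 5azadC+VX680 replicate 1 and also without replicate 2. The Birc5 and Tpx2 calls below were lost without 5azadC+VX680 replicate 2. All 3 other subunits of the passenger complex rose: Cdca8 (borealin) by 0.57 ± 0.10, Birc5 (survivin) by 0.51 ± 0.12 and Incenp, the scaffold that activates Aurora B, by 0.47 ± 0.10. Tpx2, which activates Aurora A on spindle microtubules, had 434 and 453 CPM with both drugs, against 365 and 310.5 CPM with 5azadC (log2 change 0.39 ± 0.09, adjusted p = 0.00782). Plk1, the mitotic kinase that Aurora A switches on, had 212 and 209 CPM with both drugs, against 187 and 161 CPM with 5azadC (log2 change 0.27 ± 0.10, adjusted p = 0.0526), and Bora, its cofactor in that step, had 17.9 and 17.5 CPM with both drugs, against 17.1 and 16.5 CPM with 5azadC (adjusted p = 0.782). Neither passed the threshold. In both genes the 5azadC+VX680 libraries lay above the 5azadC libraries, as they did in 30.0% of all genes tested. With 5azadC+VX680 replicate 2 left out, 3 genes of this list rose.

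Genes of mitosis and cytokinesis moved the same way, by modest amounts. Of 50 tested, 27 rose and 1 fell, with a median of 0.38, none of them by as much as 2-fold. The rise held in every cytokinesis gene of the list (5 of 5) and in 5 of 7 centromere and kinetochore genes, 6 of 10 kinesins, 3 of 5 anaphase genes and 4 of 9 mitotic entry genes, but in 2 of 7 spindle checkpoint genes and 2 of 7 chromosome condensation genes. Cenpa, the histone H3 variant that marks centromeres, had 183 and 186 CPM in 5azadC+VX680 libraries, against 99.8 and 107 CPM in 5azadC libraries (log2 change 0.83 ± 0.09, adjusted p = 3.26e-05). Cdc20, which activates the anaphase-promoting complex, had 475 and 454 CPM with both drugs, against 306 and 277 CPM with 5azadC (log2 change 0.67 ± 0.09, adjusted p = 0.000205), and its ubiquitin-conjugating partner Ube2c rose by 0.60 ± 0.09. Among cytokinesis genes, the midzone bundler Prc1 had 228 and 223 CPM with both drugs, against 146 and 125 CPM with 5azadC (log2 change 0.73 ± 0.11, adjusted p = 0.00024), the contractile ring scaffold Anln rose by 0.61 ± 0.10 and citron kinase Cit by 0.57 ± 0.09. In each of these the lower 5azadC+VX680 library exceeded the higher 5azadC library.

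Cdk1, the kinase of mitotic entry, rose by 0.53 ± 0.09 and its cyclin Ccna2 by 0.34 ± 0.09. The kinesin genes Kif20b and Kif20a rose by 0.73 ± 0.13 and 0.41 ± 0.10, and the large kinetochore protein gene Cenpf by 0.53 ± 0.12. Mki67, the proliferation marker that coats mitotic chromosomes, had 658 and 645 CPM with both drugs, against 618 and 534 CPM with 5azadC (log2 change 0.18 ± 0.09, adjusted p = 0.166). Bub3 of the spindle checkpoint had 162 and 131 CPM with both drugs, against 124 and 123 CPM with 5azadC (log2 change 0.24 ± 0.13, adjusted p = 0.182). The single fall, named after its values were seen, was Pkmyt1, which holds Cdk1 inactive (log2 change -0.46 ± 0.10, adjusted p = 0.00497). Leaving out 5azadC+VX680 replicate 2, 12 mitotic genes rose and none fell; without 5azadC replicate 2, 2 fell.

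Replication genes did not move together. Of 36 tested, 6 rose and 3 fell, with a median of 0.04, against 9.98% and 14.8% of all genes tested. Ccnd1 (cyclin D1), which starts passage through G1, had 706 and 688 CPM in 5azadC+VX680 libraries, against 389 and 318 CPM in 5azadC libraries (log2 change 0.98 ± 0.10, adjusted p = 2.2e-05). Both 5azadC+VX680 libraries lay far above both 5azadC libraries. The nucleotide supply gene Rrm2 rose by 0.57 ± 0.09, the chromatin assembly gene Chaf1a by 0.56 ± 0.11 and the origin gene Orc6 by 0.45 ± 0.15. The falls were the helicase subunit genes Mcm5 (-0.34 ± 0.09) and Mcm6 (-0.35 ± 0.10) and the ligase gene Lig1 (-0.38 ± 0.11). In number, 0 falls were called without 5azadC+VX680 replicate 1 or 2 or with limma on the authors' signal, 1 fall was called in a fit of the 4 libraries alone, and 3 rises were called without 5azadC+VX680 replicate 2.

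Most clustered histone genes fell. These genes are transcribed in S phase, and their RNAs lack poly(A) tails but are seen in total RNA. Of 69 tested, 46 fell and 2 rose (Hist3h2ba and Hist3h2bb-ps, named after their values were seen), with a median of -0.61. Summed over the list, histone RNA was 13810 and 12900 CPM with both drugs, against 16490 and 22300 CPM with 5azadC. Hist1h4h, an H4 gene, had 463 and 440.5 CPM in 5azadC+VX680 libraries, against 711 and 838 CPM in 5azadC libraries (log2 change -0.78 ± 0.11, adjusted p = 0.000167). The linker histone gene Hist1h1c had 1352 and 1261 CPM with both drugs, against 1545 and 1943 CPM with 5azadC (log2 change -0.42 ± 0.11, adjusted p = 0.0107). Other falls were Hist1h2ae (-0.74 ± 0.09), Hist1h2ab (-0.68 ± 0.10), Hist1h3h (-0.81 ± 0.12), Hist1h3f (-0.84 ± 0.12), Hist1h3i (-0.96 ± 0.15), Hist2h3b (-0.74 ± 0.12) and Hist1h2an (-2.48 ± 0.37). Histone genes are near-identical copies, so reads may be split between them and single genes are uncertain. Hist2h2aa1 and Hist2h2aa2 had the same counts, 7 and 5 reads with both drugs, against 11 and 672 reads with 5azadC, and their calls were lost without 5azadC replicate 2, without either 5azadC+VX680 library and with limma on the authors' normalized signal. Without 5azadC+VX680 replicate 1 or 2, 26 and 19 histone genes fell, and the median was -0.80 without 5azadC replicate 1 and -0.34 without 5azadC replicate 2.

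For targets of p53, the transcription factor that answers DNA damage and failed mitosis, the added change differed by role. Of 30 tested, 9 rose and 3 fell, against 9.98% and 14.8% of all genes tested. The median was 0.15, and 0.08 without 5azadC replicate 1. Among arrest genes 5 of 8 rose and none fell, with a median of 0.38. Among apoptosis genes 2 of 10 rose and none fell, and 1 of 3 feedback genes rose. Among repair and metabolism genes 1 of 9 rose and 3 fell. Their summed level was 3070 and 3109 CPM with both drugs, against 2531 and 2556 CPM with 5azadC, and 2499 and 2468 CPM with VX680 alone, against 984 and 1019 CPM in untreated cells. Cdkn1a (p21), which stops cyclin-dependent kinases, had 399.7 and 407 CPM in 5azadC+VX680 libraries, against 274 and 293 CPM in 5azadC libraries (log2 change 0.51 ± 0.09, adjusted p = 0.000732). Mdm2, whose protein degrades p53, had 403 and 400.2 CPM with both drugs, against 208 and 214 CPM with 5azadC (log2 change 0.93 ± 0.09, adjusted p = 5.54e-06). The groups lay clear of each other for both. Among death genes Pmaip1 (Noxa) rose by 1.25 ± 0.16 and the nuclease gene Aen by 0.57 ± 0.12, and among arrest genes Plk2 rose by 0.68 ± 0.11 and Ccng1 by 0.45 ± 0.11. Phlda3, an inhibitor of Akt, had 275 and 259.9 CPM with both drugs, against 230.0 and 254 CPM with 5azadC (log2 change 0.14 ± 0.09, adjusted p = 0.262). The stress genes Sesn2 (-0.52 ± 0.10), Ddit4 (-0.51 ± 0.11) and, named after its values were seen, Sesn1 (-0.95 ± 0.23) fell; without 5azadC+VX680 replicate 1 only 1 fall was called.

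Of 7 inhibitors of cyclin-dependent kinases, Cdkn1a rose and 3 fell, against 9.98% and 14.8% of all genes tested. Cdkn2b (p15) had 118 and 112 CPM with both drugs, against 167 and 183 CPM with 5azadC (log2 change -0.61 ± 0.09, adjusted p = 0.00036) and Cdkn1b (p27) had 113 and 109 CPM with both drugs, against 156 and 189 CPM with 5azadC (log2 change -0.63 ± 0.10, adjusted p = 0.000713). In both genes each 5azadC+VX680 library lay under each 5azadC library. Cdkn2a, the locus of p16 and p19Arf, had 348 and 342 CPM with both drugs, against 401 and 411 CPM with 5azadC (log2 change -0.23 ± 0.08, adjusted p = 0.0491), a call lost in 13 of 14 alternative settings. Cdkn2c (log2 change -0.24 ± 0.09, adjusted p = 0.0743), Cdkn1c (log2 change -0.46 ± 0.22, adjusted p = 0.156) and Cdkn2d (log2 change 0.48 ± 0.43, adjusted p = 0.449) were not called.

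Interferon pathway genes stood lower when VX680 was added. Cells sense foreign or stray nucleic acid through receptors such as RIG-I and MDA5, which lead through IRF and STAT factors to antiviral genes. Of 50 tested genes of this pathway 40 fell and 1 rose, with a median of -1.45, and 34 falls were at least 2-fold. The list's summed level was 1753 and 1827 CPM with both drugs, against 4916 and 2717 CPM with 5azadC, and 1025 and 1019 CPM with VX680 alone, against 786 and 774 CPM in untreated cells. The 5azadC libraries differed much in these genes, but both lay above both 5azadC+VX680 libraries in 40 of the 50, against 31.4% of all genes tested. Without 5azadC replicate 1, the library with more interferon RNA, the median was -0.90, and without 5azadC replicate 2 it was -1.86; between 28 and 44 genes fell when any 1 of the 8 libraries was left out.

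By role, 5 of 9 sensors and adaptors fell, 5 of 6 transcription factors and 30 of 33 antiviral effectors, but neither of the chemokine genes. Ddx58, which encodes the RNA sensor RIG-I, had 33.9 and 39.2 CPM in 5azadC+VX680 libraries, against 144 and 79.95 CPM in 5azadC libraries (log2 change -1.62 ± 0.22, adjusted p = 0.000152). Dhx58 (LGP2), a helper of these sensors, had 17.2 and 21.3 CPM with both drugs, against 113 and 58.4 CPM with 5azadC (log2 change -2.16 ± 0.26, adjusted p = 5.07e-05). Both genes were highest in 5azadC replicate 1 and lower in 5azadC replicate 2, with both 5azadC+VX680 libraries below. Among transcription factors, Irf7, the master regulator of type I interferon, had 18.3 and 24.8 CPM with both drugs, against 156 and 67.9 CPM with 5azadC (log2 change -2.38 ± 0.32, adjusted p = 0.000137). The ubiquitin-like modifier gene Isg15 had 50.3 and 58.5 CPM in 5azadC+VX680 libraries, against 217 and 111 CPM in 5azadC libraries (log2 change -1.59 ± 0.23, adjusted p = 0.000224).

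Among effectors, Ifit1, which binds viral RNA, had 54.3 and 58.2 CPM with both drugs, against 272 and 138 CPM with 5azadC (log2 change -1.87 ± 0.22, adjusted p = 5.45e-05). Oasl2, a relative of the oligoadenylate synthetases, had 6.75 and 9.94 CPM with both drugs, against 102 and 39.4 CPM with 5azadC (log2 change -3.09 ± 0.37, adjusted p = 5.15e-05), and Oas3, a synthetase that switches on RNase L, had 6.05 and 6.9 CPM with both drugs, against 34.8 and 15.2 CPM with 5azadC (log2 change -1.96 ± 0.38, adjusted p = 0.00252). In all 3 the 5azadC+VX680 libraries lay under both 5azadC libraries. Ifi44 fell by 3.86 ± 0.53 and Parp14, an ADP-ribosyl transferase, by a log2 change of -2.14 ± 0.29. Adar, which edits double-stranded RNA, fell by 0.57 ± 0.15, a call lost in 5 of 14 settings. The chemokine gene Cxcl10 had 20.9 and 16.01 CPM with both drugs, against 40.6 and 14.1 CPM with 5azadC (log2 change -0.58 ± 0.35, adjusted p = 0.254), so that its groups overlapped. Ifi27, named after its values were seen, was the 1 gene that rose (log2 change 0.41 ± 0.12, adjusted p = 0.0202), and it lost its call without either 5azadC+VX680 library, without 5azadC replicate 1 and in the fit of 4 libraries.

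Antigen presentation by MHC class I split by role. All 6 peptide supply genes fell, as did the transactivator Nlrc5 (-0.99 ± 0.30), while none of the 3 chain genes was called. Tap1, a chain of the transporter that brings peptides to MHC, had 24.7 and 26.2 CPM in 5azadC+VX680 libraries, against 77.9 and 47.2 CPM in 5azadC libraries (log2 change -1.30 ± 0.22, adjusted p = 0.000834). The immunoproteasome subunit genes Psmb10, Psmb8 and Psmb9 fell, with log2 changes of -1.36 ± 0.18, -2.02 ± 0.38 and -2.72 ± 0.65, Tap2 by a log2 change of -1.17 ± 0.31 and the loading chaperone Tapbp by a log2 change of -1.09 ± 0.17. The light chain gene B2m had 134 and 133 CPM with both drugs, against 185 and 136 CPM with 5azadC (log2 change -0.27 ± 0.15, adjusted p = 0.218). Without 5azadC+VX680 replicate 1 or without 5azadC replicate 1, 4 genes of the list fell, and 2 rose without 5azadC replicate 1.

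**Figure D2:**
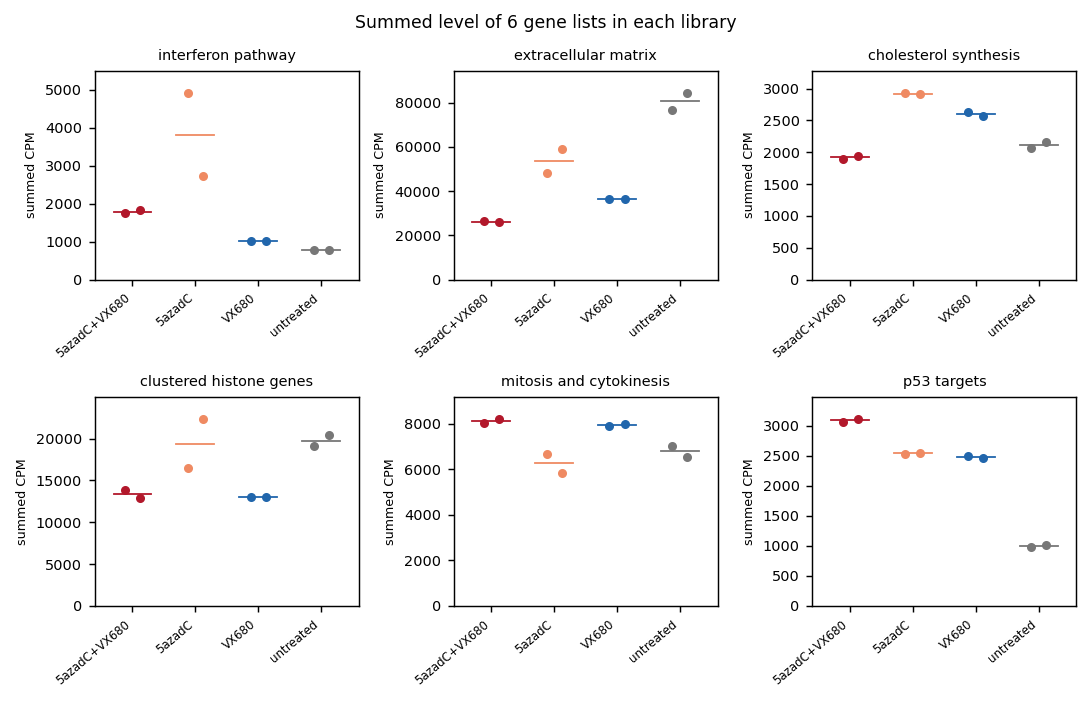
Summed CPM (vertical axis, linear from 0) of the tested genes of 6 lists in each of the 8 libraries, with 1 point per library and a line at the group mean. Interferon genes are at 1753 and 1827 CPM with both drugs, below both 5azadC libraries (4916 and 2717), and matrix and cholesterol genes are lowest in the 5azadC+VX680 libraries.

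Matrix genes, the main product of fibroblasts, fell across nearly all classes. Of 61 tested 43 fell and 2 rose, with a median of -0.90, and their summed level was 26380 and 26020 CPM with both drugs, against 48030 and 58970 CPM with 5azadC. By class, 14 of 16 collagens fell, 5 of 7 small leucine-rich proteoglycans, 11 of 15 elastic fibre genes, 5 of 8 cross-linking enzymes and 8 of 15 glycoprotein and basement membrane genes. Col1a1, the main chain of type I collagen, had 1929 and 1839.6 CPM in 5azadC+VX680 libraries, against 5972 and 8067 CPM in 5azadC libraries (log2 change -1.90 ± 0.14, adjusted p = 6.75e-07). Col6a1, of the beaded filaments around cells, had 482 and 474 CPM with both drugs, against 1590.2 and 1936 CPM with 5azadC (log2 change -1.88 ± 0.10, adjusted p = 6.13e-08). For both genes the groups were far apart, and the 5azadC libraries differed more from each other than the 5azadC+VX680 libraries did. Col1a2, Col3a1, Col6a2 and Col6a3 fell, with log2 changes of -1.52 ± 0.12, -2.11 ± 0.17, -1.98 ± 0.14 and -1.61 ± 0.10. Between 40 and 48 matrix genes fell when any 1 library was left out, and 5 rose without 5azadC replicate 2.

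Lox, the oxidase that starts cross-links of collagen and elastin, had 357 and 334 CPM in 5azadC+VX680 libraries, against 1284 and 1655 CPM in 5azadC libraries (log2 change -2.09 ± 0.12, adjusted p = 8.18e-08). Its relative Loxl3 had 75.9 and 74.9 CPM with both drugs, against 235 and 214 CPM with 5azadC (log2 change -1.57 ± 0.10, adjusted p = 1.63e-07), whereas Loxl4 rose by 0.95 ± 0.14. The only other matrix gene that rose was the laminin gene Lamb1 (0.44 ± 0.09); it and Loxl4 are named after their values were seen. Among proteoglycans, which space collagen fibrils, Ogn had 4.92 and 2.898 CPM with both drugs, against 52.8 and 44.6 CPM with 5azadC (log2 change -3.64 ± 0.22, adjusted p = 1.76e-07). Fmod fell by 3.39 ± 0.24, Aspn by a log2 change of -4.85 ± 0.37, Omd by a log2 change of -3.72 ± 0.73 and the X-linked gene Bgn by a log2 change of -1.23 ± 0.12. Emilin1 of elastic fibres had 107 and 117 CPM with both drugs, against 337 and 333 CPM with 5azadC (log2 change -1.58 ± 0.09, adjusted p = 8.18e-08). Fibronectin (Fn1) had 3842 and 3520.4 CPM with both drugs, against 4707 and 4126 CPM with 5azadC (log2 change -0.26 ± 0.10, adjusted p = 0.0792) and Fbln2 565 and 571 CPM with both drugs, against 555 and 667 CPM with 5azadC (log2 change -0.10 ± 0.10, adjusted p = 0.468), so neither was called. Hmcn1, a very large basement membrane protein gene, had 0.703 and 1.93 CPM with both drugs, against 13.6 and 41.8 CPM with 5azadC (log2 change -4.34 ± 0.57, adjusted p = 0.000113), and 10.6 and 11.1 CPM with VX680 alone, against 528 and 513 CPM in untreated cells.

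Receptors that fibroblasts use for growth and attachment fell in 9 of 13 with none rising in edgeR's test, with a median of -0.67; 1 rose with limma on the authors' normalized signal and 1 without 5azadC replicate 2. Pdgfrb, the receptor for PDGF-B, had 118 and 111 CPM in 5azadC+VX680 libraries, against 420.1 and 465 CPM in 5azadC libraries (log2 change -1.95 ± 0.09, adjusted p = 1.39e-08). Itga11, a collagen-binding integrin, had 17.4 and 18.2 CPM with both drugs, against 138 and 205 CPM with 5azadC (log2 change -3.26 ± 0.20, adjusted p = 1.63e-07). Both genes were several-fold lower with no overlap. Pdgfra fell by 1.37 ± 0.17, the collagen-binding receptors Itga1 and Ddr2 by log2 changes of -2.01 ± 0.35 and -0.60 ± 0.09, the integrin gene Itgb5 by a log2 change of -0.67 ± 0.09, and the TGF-beta receptors Tgfbr2 and Tgfbr3 by log2 changes of -0.80 ± 0.10 and -1.01 ± 0.11. Itgb1, the common partner chain of integrins, had 1092 and 1083 CPM with both drugs, against 1001 and 1213 CPM with 5azadC (log2 change -0.03 ± 0.10, adjusted p = 0.871). Transcription factors of mesenchymal identity fell in 11 of 17 with none rising, with a median of -0.51, and in 6 without 5azadC+VX680 replicate 2. Examples are Nr2f2 (-1.11 ± 0.12), Ebf1 (-0.87 ± 0.11), Osr2 (-2.23 ± 0.33), Osr1 (-0.69 ± 0.14), Tbx18 (-0.61 ± 0.10), Prrx1 (-0.59 ± 0.11), Snai1 (-0.90 ± 0.12) and Snai2 (-0.76 ± 0.20).

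Secreted growth and patterning signals went both ways, with 5 rises and 8 falls in 25 tested genes. Over all genes tested 9.98% rose and 14.8% fell. Gdf6, a BMP-family ligand, had 12.9 and 10.5 CPM in 5azadC+VX680 libraries, against 0.892 and 1.51 CPM in 5azadC libraries (log2 change 3.30 ± 0.36, adjusted p = 2.41e-05). It was several-fold higher with both drugs. Inhba, the activin A chain, rose by 0.65 ± 0.12; Tgfb1 (0.59 ± 0.18) and the Wnt antagonist Dkk2 (0.68 ± 0.18), named after their values were seen, rose as well. Of the rises, 3 were called without 5azadC+VX680 replicate 2. Tgfb3 had 80 and 79.1 CPM with both drugs, against 182 and 188 CPM with 5azadC (log2 change -1.22 ± 0.10, adjusted p = 3.23e-06), and Dkk3, Igf1 and Grem1 fell, with log2 changes of -1.58 ± 0.14, -1.78 ± 0.26 and -0.81 ± 0.14. The Wnt modulator Sfrp2 had 77.5 and 68.03 CPM with both drugs, against 185 and 713 CPM with 5azadC (log2 change -2.62 ± 0.42, adjusted p = 0.000497), with the 5azadC libraries far from each other. Vegfa was not called (log2 change -0.21 ± 0.10, adjusted p = 0.145).

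Chemokine and protease genes that are secreted in stress also split. Cxcl12, which retains CXCR4-bearing cells, had 49.2 and 43.7 CPM in 5azadC+VX680 libraries, against 339.6 and 355 CPM in 5azadC libraries (log2 change -2.90 ± 0.10, adjusted p = 8.95e-10), while Hbegf, an EGF receptor ligand, had 77.2 and 86.1 CPM with both drugs, against 30.7 and 29.2 CPM with 5azadC (log2 change 1.45 ± 0.13, adjusted p = 4.63e-06). Groups were clearly separate in both. The list held 14 tested genes, of which 5 rose, Hbegf, Timp1, Ereg and Mmp13 among them, and 1 fell; without 5azadC replicate 1, 8 rose. Timp1 rose by 0.72 ± 0.12, Ereg by 0.63 ± 0.20, lost in 7 of 14 settings, and the collagenase gene Mmp13 had 19 and 17 reads with both drugs, against 2 and 2 reads with 5azadC (log2 change 3.27 ± 0.65, adjusted p = 0.00257). Csf1 (log2 change 0.37 ± 0.13, adjusted p = 0.0544) and Cxcl1 (log2 change 1.17 ± 0.41, adjusted p = 0.0514) just missed the threshold.

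Cholesterol synthesis genes fell almost to a member. They are driven by SREBP2 when sterols run low. Of 22 tested 20 fell and none rose, with a median of -0.60, against 14.8% and 9.98% of all genes tested. In all 22 both 5azadC+VX680 libraries lay under both 5azadC libraries, against 31.4% of all genes tested. The summed level was 1894 and 1949 CPM with both drugs, against 2931 and 2910 CPM with 5azadC, and 2629 and 2569 CPM with VX680 alone, against 2073 and 2168 CPM in untreated cells. Sqle, which makes squalene epoxide, had 129 and 134 CPM in 5azadC+VX680 libraries, against 229 and 216 CPM in 5azadC libraries (log2 change -0.76 ± 0.09, adjusted p = 5.16e-05), and Cyp51, the sterol demethylase, had 98 and 110.1 CPM with both drugs, against 183 and 181 CPM with 5azadC (log2 change -0.81 ± 0.09, adjusted p = 4.06e-05). The 2 libraries of each group lay close together. Srebf2, which encodes SREBP2 itself, had 344 and 325 CPM with both drugs, against 549.9 and 549.8 CPM with 5azadC (log2 change -0.72 ± 0.09, adjusted p = 6.31e-05). Dhcr7, Nsdhl, Mvk and Insig1 fell, with log2 changes of -0.76 ± 0.10, -0.73 ± 0.10, -0.68 ± 0.11 and -0.63 ± 0.11. Idi1 (log2 change -0.42 ± 0.28, adjusted p = 0.308) and Ebp (log2 change -0.48 ± 0.17, adjusted p = 0.056), named after their values were seen, were the 2 not called. When 5azadC+VX680 replicate 1 was left out, 12 of these genes fell.

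**Figure D3:**
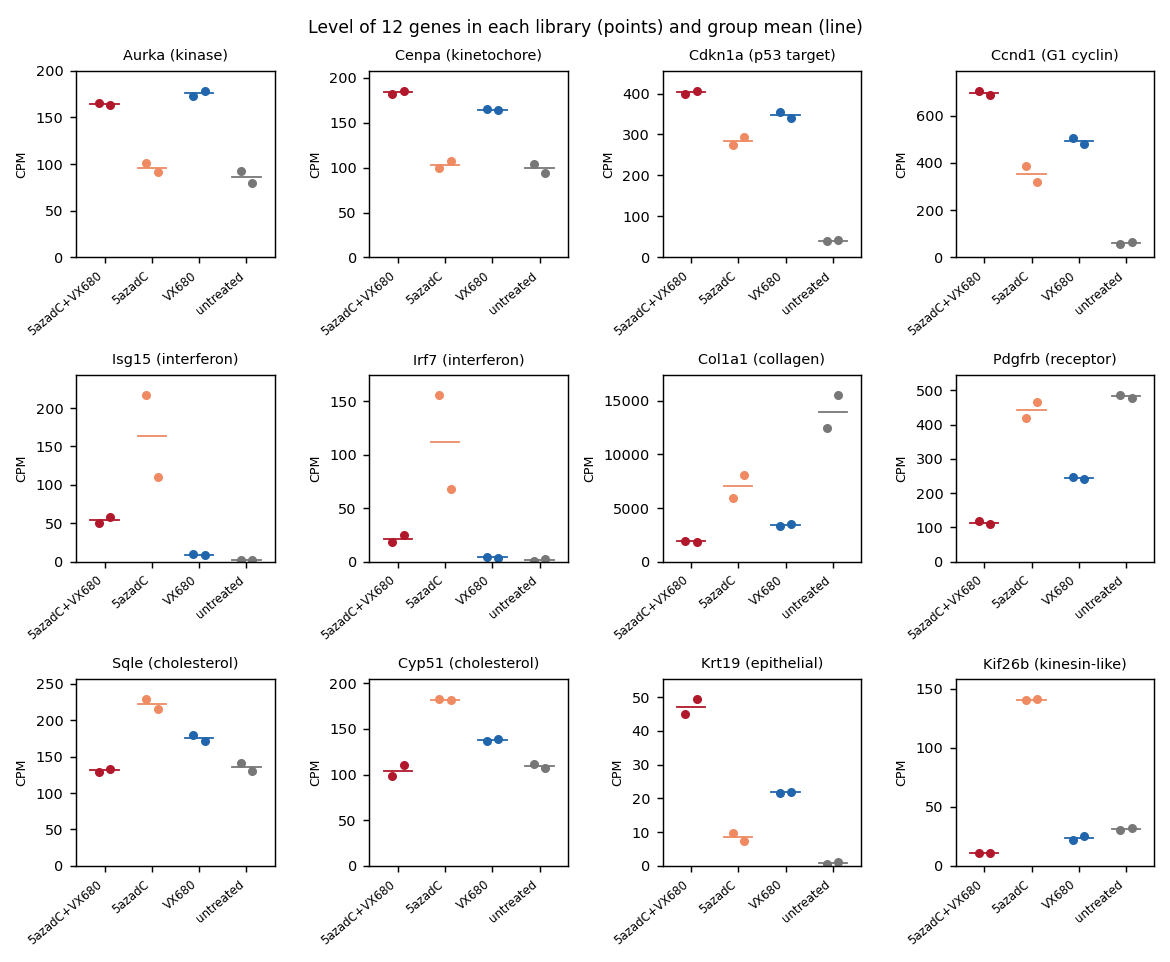
CPM (vertical axis, linear from 0) of 12 genes in each library, with 1 point per library and a line at the group mean, in the order 5azadC+VX680, 5azadC, VX680 and untreated. Kif26b stands at 11.2 and 10.8 CPM with both drugs, against 140 and 141 CPM with 5azadC, and Krt19 at 44.99 and 49.4 CPM with both drugs, against 9.698 and 7.27 CPM with 5azadC.

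The smooth muscle list held 15 tested contractile genes, which fibroblasts switch on as they become myofibroblasts, and 6 SRF and YAP response genes. Of all 21, 10 fell and 1 rose, with a median of -0.29. Of the contractile genes 8 fell and none rose, with a median of -0.32. Of the response genes 2 fell and 1 rose. Acta2, the smooth muscle actin, had 975 and 968 CPM in 5azadC+VX680 libraries, against 1477 and 1868 CPM in 5azadC libraries (log2 change -0.78 ± 0.11, adjusted p = 0.000141). Mylk, the myosin light chain kinase, had 17.9 and 17.1 CPM with both drugs, against 115 and 80.9 CPM with 5azadC (log2 change -2.49 ± 0.16, adjusted p = 2.7e-07). In both genes the groups did not overlap. Cnn2, Myl9 and Lmod1 fell, with log2 changes of -0.58 ± 0.09, -0.75 ± 0.12 and -0.68 ± 0.16, and the YAP response genes Amotl2 and Cyr61 by log2 changes of -0.82 ± 0.09 and -0.49 ± 0.09. The rise was in another YAP response gene, Ankrd1 (log2 change 1.38 ± 0.11, adjusted p = 1.93e-06). In this list 6 genes fell without 5azadC+VX680 replicate 1, and 3 rose without 5azadC replicate 2. Of the striated muscle genes, Acta1 fell by 0.75 ± 0.15 and cardiac troponin T (Tnnt2) had 12.9 and 11.9 CPM with both drugs, against 2.56 and 1.097 CPM with 5azadC (log2 change 2.71 ± 0.44, adjusted p = 0.000776); the other 2 tested, Tnnc1 and Actc1, were not called.

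Some epithelial genes rose. Of 5 tested markers of simple epithelium 3 rose, and 5 rose without 5azadC replicate 1. The keratin gene Krt19 had 44.99 and 49.4 CPM in 5azadC+VX680 libraries, against 9.698 and 7.27 CPM in 5azadC libraries (log2 change 2.46 ± 0.20, adjusted p = 1.96e-06), Krt7 had 3.23 and 2.62 CPM with both drugs, against 0.892 and 0.411 CPM with 5azadC (log2 change 2.10 ± 0.68, adjusted p = 0.0371), a call lost in 6 of 14 settings, and the membrane protease gene St14 had 8.44 and 14.2 CPM with both drugs, against 3.23 and 4.8 CPM with 5azadC (log2 change 1.51 ± 0.36, adjusted p = 0.00943). Krt8 and Krt18, the partner keratins of simple epithelia, had overlapping groups and were not called (adjusted p = 0.286 and 0.288). Krt13, a keratin of mucosal linings, had 10.7 and 7.18 CPM with both drugs, against 2.01 and 2.47 CPM with 5azadC (log2 change 1.998 ± 0.38, adjusted p = 0.00233). Outside epithelia, the fatty acid carrier Fabp4 had 19.7 and 20.4 CPM with both drugs, against 3.34 and 3.43 CPM with 5azadC (log2 change 2.56 ± 0.33, adjusted p = 9.87e-05) and the VEGF receptor gene Flt1 71 and 62.2 CPM with both drugs, against 31.99 and 31.95 CPM with 5azadC (log2 change 1.06 ± 0.12, adjusted p = 3.34e-05), while Eng, a TGF-beta co-receptor of endothelium, fell by 0.74 ± 0.10. Col2a1, a cartilage collagen, rose by 1.83 ± 0.43 and its activator Sox9 fell by 1.16 ± 0.22; the Col2a1 call was lost without 5azadC+VX680 replicate 2. The Schwann cell marker S100b rose by 1.42 ± 0.46, a call lost in 8 of 14 settings. In this edgeR fit no tested marker of keratinocytes (Krt10), melanocytes (Pmel) or leukocytes (Cd68 and Lyz2) was called. The leukocyte markers Cd68 (log2 change 0.65 ± 0.24, adjusted p = 0.0619) and Lyz2 (log2 change -0.88 ± 0.40, adjusted p = 0.129) had an unadjusted p under 0.05. Of these, 1 rose with limma on the authors' normalized signal and without 5azadC+VX680 replicate 2, 1 fell without 5azadC replicate 1, and 1 rose and 1 fell with no filter.

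The 15 largest rises by the naming rule were of genes with at most 27 reads in either 5azadC library. Cldn3, a tight junction protein of epithelia, had 44 and 34 reads with both drugs, against 0 and 1 reads with 5azadC, a ratio of 88.3-fold (95% counting interval 15.4 to 3533). Colec10, a liver lectin, had 22 and 36 reads with both drugs, against 0 and 2 reads with 5azadC, a ratio of 32.8-fold (95% counting interval 8.69 to 278), and the X-linked GTPase regulator Stard8 28 and 9 reads with both drugs, against 2 and 1 reads with 5azadC, a ratio of 13.97-fold (95% counting interval 4.42 to 70.8). The naming rule admitted only genes whose groups do not overlap, so their separation is no further result. The intervals cover counting error only. Serpinb9b, an inhibitor of granzymes, had 21.2 and 23.5 CPM with both drugs, against 1.34 and 1.097 CPM with 5azadC (log2 change 4.17 ± 0.31, adjusted p = 9.91e-07). Rgs16, which turns off G protein signals, had 14.8 and 13.5 CPM with both drugs, against 3.01 and 0.96 CPM with 5azadC (log2 change 2.77 ± 0.42, adjusted p = 0.000331). Others were Arap3 (3.72 ± 0.56), Tmem171 (3.57 ± 0.62), the synaptic scaffold Dlgap1 (3.31 ± 0.67), the desmosomal gene Pkp1 (3.29 ± 0.65), Fam71f1 (3.09 ± 0.47), Ndrg2 (3.06 ± 0.71), the neuronal stathmin Stmn4 (2.92 ± 0.63) and Plb1 (2.71 ± 0.89), whose call was lost in 7 of 14 settings; Gdf6 and Mmp13 complete the 15.

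Among the largest falls, Kif26b, a kinesin-like gene of planar polarity signalling, had close replicates, with 11.2 and 10.8 CPM in 5azadC+VX680 libraries, against 140.1 and 141 CPM in 5azadC libraries (log2 change -3.67 ± 0.13, adjusted p = 8.95e-10), and 21.9 and 24.9 CPM with VX680 alone, against 30.6 and 32.4 CPM in untreated cells. It was lowest of the 4 groups with both drugs and highest with 5azadC. Megf6 had 1.27 and 1.24 CPM with both drugs, against 24.9 and 56.8 CPM with 5azadC (log2 change -4.99 ± 0.43, adjusted p = 3.16e-06) and Abi3bp, a matrix protein gene, had 8.72 and 9.798 CPM with both drugs, against 103 and 198 CPM with 5azadC (log2 change -4.02 ± 0.28, adjusted p = 5.02e-07). For these genes too, a lack of overlap was a condition of the naming rule. The transcription factor gene Sox5 had 2 and 0 reads with both drugs, against 26 and 22 reads with 5azadC, a ratio of 21.2-fold (95% counting interval 5.56 to 180.0) lower, and the X-linked phosphodiesterase gene Gdpd2 0 and 1 reads with both drugs, against 11 and 14 reads with 5azadC, a ratio of 22.1-fold (95% counting interval 3.61 to 906) lower. The Gdpd2 and Stard8 calls were lost without 5azadC+VX680 replicate 1. Apod, a lipocalin, fell by 4.26 ± 0.61 and the imprinted gene Mest by a log2 change of -3.72 ± 0.43; Aspn, Hmcn1, Ogn, Omd, Ifi44 and the 2 Hist2h2aa genes were also among them.

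Nuclear and early response RNAs gave a mixed picture. Neat1, the noncoding RNA of paraspeckles, had 982 and 859.7 CPM in 5azadC+VX680 libraries, against 399 and 310.5 CPM in 5azadC libraries (log2 change 1.37 ± 0.16, adjusted p = 3.41e-05), while Malat1, a noncoding RNA of nuclear speckles, had 4453 and 4314 CPM with both drugs, against 4214 and 4478 CPM with 5azadC (log2 change 0.01 ± 0.09, adjusted p = 0.932). Egr1, an early response transcription factor gene, had 79.9 and 55.9 CPM with both drugs, against 409.9 and 284 CPM with 5azadC (log2 change -2.36 ± 0.20, adjusted p = 2.44e-06) and Fos fell by 1.20 ± 0.19. Atf3, Jun, Hspa1a and Hspa1b were not called. Of 418 noncoding RNA genes 34 rose and 21 fell, with a median of 0.12. Over all genes tested 9.98% rose and 14.8% fell, so noncoding RNA genes were called less often in both directions. None of 28 small nucleolar RNA genes was called in this edgeR fit.

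Genes for translation, respiration and lysosomes were mostly not called, as were most genes, of which 9.98% rose and 14.8% fell. The fitted change was above 0 in 71 of 80 cytosolic ribosomal protein genes, 53 of 72 respiratory chain genes and 11 of 21 lysosomal genes. Over all 12643 genes tested it was above 0 in 6271. In 54 of the 80 ribosomal protein genes both 5azadC+VX680 libraries lay above both 5azadC libraries, against 30.0% of all genes. Of 80 cytosolic ribosomal protein genes 14 rose and 2 fell, with a median of 0.32; Rps24 had 105 and 109.7 CPM with both drugs, against 34 and 47.2 CPM with 5azadC (log2 change 1.41 ± 0.14, adjusted p = 9.95e-06) and Rpl8, the gene of the list with most reads, had 1173 and 1179 CPM with both drugs, against 929 and 907 CPM with 5azadC (log2 change 0.36 ± 0.08, adjusted p = 0.00502). Rpl12 and Rps12 rose by 1.17 ± 0.22 and 1.05 ± 0.22, while Rpl17 (-1.83 ± 0.45) and, named after its values were seen, Rpl6 (-0.40 ± 0.14) fell. The falls numbered 0 without either 5azadC+VX680 library, 2 without either 5azadC library and 1 in each of the other 10 settings. The count of rises was 4 without either 5azadC+VX680 library, 8 without either VX680 library or with 4 libraries, 30 without 5azadC replicate 2 and 25 on the authors' signal, and ribosomal protein genes have many processed copies, which makes single genes uncertain. Of 72 respiratory chain genes 5 rose (Ndufa8, Ndufa12, Cox7b, Atp5b and Ndufa4) and 1 fell (Ndufs8, -0.49 ± 0.11), with a median of 0.12, which was 0.03 without 5azadC replicate 1 and 0.24 without 5azadC replicate 2; 0 rose without 5azadC+VX680 replicate 1, 2 without 5azadC+VX680 replicate 2 or without either VX680 library, 17 without 5azadC replicate 2 and 14 on the authors' signal; 6 fell without 5azadC replicate 1. Of 21 lysosomal genes, 4 rose and 2 fell. The protease genes Ctsb (0.70 ± 0.09), Ctsl (0.55 ± 0.10) and Ctsd (0.31 ± 0.09) and Gpnmb (0.43 ± 0.09) rose, and Laptm4a (-0.46 ± 0.10) and the regulator Tfe3 (-0.57 ± 0.13) fell; 2 rose without 5azadC+VX680 replicate 1 and 7 without 5azadC replicate 2, and 0 fell without 5azadC+VX680 replicate 2 and 5 without 5azadC replicate 1.

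In the DNA methylation machinery, 5 of 18 tested genes fell and none rose. Over all genes tested 14.8% fell and 9.98% rose, and the 1 rise among 11 germline genes below is near that share. Tet2, a dioxygenase that starts the removal of methylcytosine, had 15.2 and 12.1 CPM in 5azadC+VX680 libraries, against 32.8 and 30.9 CPM in 5azadC libraries (log2 change -1.22 ± 0.16, adjusted p = 0.000105), and its relative Tet3 fell by 0.42 ± 0.11. The de novo methyltransferase gene Dnmt3a had 97.6 and 90.4 CPM with both drugs, against 129 and 126 CPM with 5azadC (log2 change -0.44 ± 0.09, adjusted p = 0.00323). For Tet2 and Dnmt3a the groups did not overlap. The X-linked reader Zbtb33 (-0.48 ± 0.16) lost its call in 13 of 14 settings. Dnmt1, the maintenance enzyme that 5azadC traps, had 616 and 572 CPM with both drugs, against 720.4 and 667 CPM with 5azadC (log2 change -0.23 ± 0.08, adjusted p = 0.0684). Of the list, 1 gene fell without 5azadC+VX680 replicate 2 and 3 without 5azadC+VX680 replicate 1 or either VX680 library, and 1 rose without 5azadC replicate 1. Of 11 tested germline genes that methylation holds silent, 1 rose (Dpep3, with 14 and 20 reads with both drugs, against 6 and 1 reads with 5azadC, lost in 10 of 14 settings) and none fell, but 1 fell without 5azadC replicate 2 and 1 with no filter. Sohlh2, a germ cell transcription factor gene, had 4.64 and 4.42 CPM with both drugs, against 15.05 and 5.35 CPM with 5azadC (log2 change -1.18 ± 0.43, adjusted p = 0.0584), and Tex19.1, which guards germ cells against mobile elements, had 7.31 and 4.69 CPM with both drugs, against 11.3 and 6.86 CPM with 5azadC (adjusted p = 0.258).

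The effect of VX680 in the presence of 5azadC was set beside its effect in the absence of 5azadC, which uses 4 other libraries. VX680 alone raised 23.8% and lowered 22.4% of genes. The log2 changes of the 12643 genes in both settings had a Pearson r of 0.54 and a Spearman rho of 0.55, across genes, which are not independent replicates. Of the 3139 genes called on top of 5azadC, 2107 (67.1%) were called in the same direction with VX680 alone, which is 36.1% of the 5834 genes called there, and 162 were called in opposite directions. Of the 2107, 1453 had a smaller fitted change in the presence of 5azadC, and the difference itself, in either direction, was called in 424. The difference of both effects was itself called positive in 4.95% of genes (626) and negative in 10.6% (1341). The total of 1967 such genes was 1066 and 1055 without 5azadC+VX680 replicates 1 and 2, 948 and 1102 without VX680 replicates 1 and 2, and 1229 without untreated replicate 1.

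**Figure D4:**
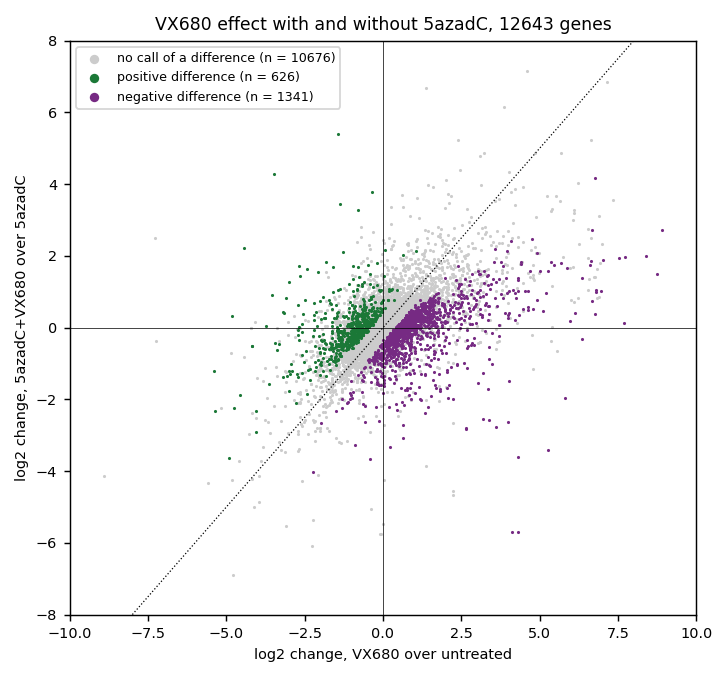
Log2 change made by VX680 in the presence of 5azadC (vertical axis) against its absence (horizontal axis), 1 point per gene, with green and purple for genes whose difference of the effects was called positive (626) or negative (1341); the dotted line marks equal effects. Purple genes lie to the right of and below the line; fitted values of genes with 0 reads in a group depend on the prior count.

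Gene lists differed in this respect. Of 22 cholesterol genes, 17 had a negative difference and none a positive one. They fell in 20 on top of 5azadC, whereas 12 rose and none fell with VX680 alone. Cyp51, given above, had 137 and 139 CPM with VX680 alone, against 112 and 107 CPM in untreated cells, and its difference was -1.14 ± 0.13, adjusted p = 7.6e-05. VX680 thus raised Cyp51 in the absence and lowered it in the presence of 5azadC. Of 50 interferon genes 38 had a negative difference, and 18 rose and none fell with VX680 alone; Isg15 had 10.1 and 8.52 CPM with VX680 alone, against 1.99 and 2.49 CPM in untreated cells, with a difference of -3.69 ± 0.49, adjusted p = 0.000239. Of 21 genes of the smooth muscle list 17 had a negative difference, 12 of the 15 contractile and 5 of the 6 response genes. Acta2 had 1303 and 1254 CPM with VX680 alone, against 967 and 1043 CPM in untreated cells (difference -1.13 ± 0.15, adjusted p = 0.000225).

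Of 30 p53 targets, 20 had a negative difference and 1 a positive one, and 21 rose and 2 fell with VX680 alone. Cdkn1a had 356 and 341 CPM with VX680 alone, against 39.98 and 42.5 CPM in untreated cells, a difference of -2.57 ± 0.13, adjusted p = 1.94e-07, and Ccng1 a difference of -2.33 ± 0.16, adjusted p = 1.46e-06. Both rose in either setting, by less on top of 5azadC. Ccnd1 had 506 and 480.1 CPM with VX680 alone, against 57.8 and 66.3 CPM in untreated cells, with a difference of -2.02 ± 0.15, adjusted p = 2.47e-06. Mitotic genes had 3 positive and no negative differences among 50, and rose in 19 and fell in 6 with VX680 alone. Aurka had 173 and 179 CPM with VX680 alone, against 92.8 and 79.4 CPM in untreated cells (difference -0.25 ± 0.14, adjusted p = 0.271), which was not called, while Plk1 was (-0.48 ± 0.14, adjusted p = 0.0288). Matrix genes had 10 positive and 12 negative differences among 61, with 5 rises and 42 falls under VX680 alone; the difference was 0.13 ± 0.19, adjusted p = 0.708 for Col1a1 and 0.68 ± 0.16, adjusted p = 0.0111 for Lox. Outside this list, it was -0.97 ± 0.13, adjusted p = 0.000202 for Pdgfrb and -3.24 ± 0.17, adjusted p = 3.3e-07 for Kif26b. Histone genes had 4 positive and 3 negative differences among 69.

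The largest positive differences by the naming rule were in genes with few reads in cells that had 5azadC, and VX680 alone lowered all of them but Mmp13. Cd93, a membrane receptor, had 4.499 and 5.11 CPM with both drugs, against 1.34 and 1.78 CPM with 5azadC, and 4.03 and 3.46 CPM with VX680 alone, against 18.4 and 21.99 CPM in untreated cells, a difference of 4.04 ± 0.42, adjusted p = 3.87e-05. Enpp2 (autotaxin), which makes lysophosphatidic acid, had 3.37 and 3.73 CPM with both drugs, against 2.01 and 0.823 CPM with 5azadC, and 2.75 and 2.53 CPM with VX680 alone, against 24.8 and 17.6 CPM in untreated cells, a difference of 4.28 ± 0.53, adjusted p = 0.000146. Both genes were highest in untreated cells and low in the other 3 groups. The others were Ptchd1 (6.66 ± 1.06, adjusted p = 0.001), Ramp2 (4.45 ± 0.97, adjusted p = 0.00755), Sorbs2 (4.40 ± 0.81, adjusted p = 0.00266) and Mmp13 (4.08 ± 0.81, adjusted p = 0.00414). The 6 largest negative ones, Oas1a, Oas3, St14, Plac8, Krt13 and Tnnt2, all had 0 reads in both untreated libraries, so the size of their difference cannot be given.

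Among 18 tested regulators of X inactivation 1 fell, Ciz1, which anchors Xist RNA in the nucleus (log2 change -0.64 ± 0.12, adjusted p = 0.00171). Xist, the RNA that coats and silences the inactive X, had 426 and 429 CPM in 5azadC+VX680 libraries, against 405 and 426 CPM in 5azadC libraries (log2 change 0.04 ± 0.08, adjusted p = 0.755), and 357 and 378 CPM with VX680 alone, against 781 and 786 CPM in untreated cells. Its level was not called different between 5azadC+VX680 and 5azadC, and all 6 libraries that had a drug lay below both untreated libraries. Rlim (log2 change 0.17 ± 0.09, adjusted p = 0.179), Ezh2 (log2 change 0.26 ± 0.13, adjusted p = 0.168) and Hnrnpu (log2 change 0.14 ± 0.10, adjusted p = 0.365) were not called. Without 5azadC replicate 1, 2 regulators rose and 2 fell, and 2 rose with limma on the authors' normalized signal. Among all 404 X-linked genes tested 36 rose and 52 fell, with a median of -0.01. Among 12239 autosomal genes 1226 rose and 1825 fell. Over all genes tested 9.98% rose and 14.8% fell, and neither share was higher for X-linked genes.

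Allelic reads tell the parental X chromosomes apart. Between 77.4% and 93.2% of allelic Xist reads carried the mus allele in the 8 libraries, and X-linked genes were read mostly from cas, the pattern of an inactive mus X. Over 277 X-linked genes other than Xist, mus reads made up 5.74% (95% Clopper-Pearson interval 5.46 to 6.03) and 5.80% (5.52 to 6.08) of 26443 and 26971 allelic reads with both drugs. With 5azadC the share was 5.26% (5.04 to 5.50) and 4.89% (4.65 to 5.14) of 36738 and 30002 reads. Both 5azadC+VX680 libraries thus lay above both 5azadC libraries, by 0.69 percentage points in the mean (exact two-sided permutation p = 0.333, the smallest that 2 against 2 libraries can give). VX680 alone gave 4.84% and 4.96%, against 4.01% and 4.05% in untreated cells. The intervals cover counting error only. On autosomes the mus share was 47.9% and 47.7% with both drugs, against 46.9% and 48.8% with 5azadC.

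**Figure D5:**
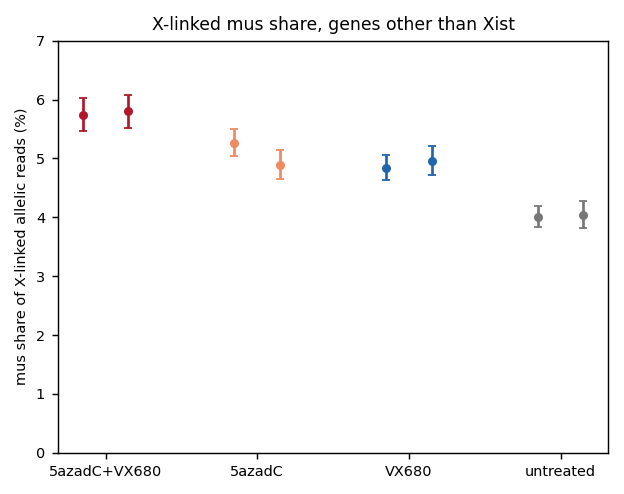
Mus share of allelic reads over 277 X-linked genes other than Xist (vertical axis, percent, from 0) in each library, with 95% Clopper-Pearson intervals for counting error as bars. The 5azadC+VX680 libraries are at 5.74% and 5.80%, above 5.26% and 4.89% with 5azadC.

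Other weightings and other sets of the X-linked genes gave smaller differences. Averaged over genes, for 207 X-linked genes in place of 277, the mus share was 7.71% with both drugs, against 7.403% with 5azadC (difference 0.30 points, exact p = 0.333). Without the 40 genes at 10% or more mus reads in untreated cells, it was 1.67% with both drugs, against 1.501% with 5azadC, a difference of 0.17 points (exact p = 0.667), and the groups overlapped. Counting genes, the mus share was higher with both drugs in 90, higher with 5azadC in 92 and equal in 95. No mus read was found in 128 genes with both drugs and in 124 genes with 5azadC. At this depth the even split cannot show whether a small shift is absent. No X-linked gene other than Xist had a called change of allelic ratio among these 277 (edgeR; 18 at an unadjusted p under 0.05), against 14 calls in all 10301 genes (0.136%). Leaving out 5azadC+VX680 replicate 1 or 5azadC replicate 2, 1 X-linked gene was called lower.

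For single X-linked genes, Msn (moesin, which ties actin to the membrane) rose in total level to 1189 and 1169 CPM with both drugs, against 808 and 687 CPM with 5azadC (log2 change 0.66 ± 0.09, adjusted p = 0.00024). Its mus share was 4.58% and 3.95% with both drugs, against 8.87% and 3.54% with 5azadC, 1.08% and 1.16% with VX680 alone, against 0.163% and 0% of reads in untreated cells. The 5azadC libraries lay on either side of the 5azadC+VX680 libraries. G6pdx, of the pentose phosphate pathway, had a mus share of 16% and 15.3% with both drugs, against 2.42% and 5.95% with 5azadC (allelic log2 change 2.16 ± 0.68, adjusted p = 0.397), from 75 and 72 allelic reads with both drugs, against 124 and 84 with 5azadC. For Hprt the share was 0% and 0% with both drugs, against 4.35% and 0% with 5azadC. Pgk1 had 10 to 15 allelic reads in each of these libraries and none from mus. Hprt had 33 to 47 allelic reads in these libraries, and no change was detectable at this depth in Pgk1 or Hprt. Xist itself had a mus share of 81.7% and 88.6% with both drugs, against 77.4% and 79.8% with 5azadC (allelic log2 change 0.67 ± 0.19, adjusted p = 0.249).

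All 14 allelic calls were autosomal, 7 towards mus and 7 towards cas, and were named after their values were seen. Lrp1, an endocytic receptor gene, had a mus share of 13.1% and 11.98% with both drugs, against 7.25% and 6.69% with 5azadC (adjusted p = 1.26e-06). Tnc, the matrix glycoprotein tenascin C, had 72.5% and 70.0% with both drugs, against 57.5% and 55.3% with 5azadC (adjusted p = 0.000518), and Lox 37.6% and 35.4% with both drugs, against 42.1% and 45.6% with 5azadC (adjusted p = 0.00185). These shares did not overlap between groups. The calls in Hist1h2bh, Hist1h4f, Hist1h3a and Hist1h2bf lie in near-identical histone genes and are uncertain; the others were in Thy1, Sipa1l1, Hmgn1, Vim, Ndufa8, Ptx3 and S1pr3.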

How the data were processed

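The submitters' processing notes name the mm9 build, TopHat2 2.0.10, HOMER 4.8 and edgeR. The deposited table used here holds the authors' raw counts per gene, both alleles together; a second deposited table splits raw counts by mus and cas allele. The authors' normalized signal (composite counts times 1 factor per library; how factors were made is not given in the sources used here) served as an alternative. The gene length column, per the file headers in bases, was used for no printed value. The authors' deposited tables of their own comparisons were not used here. Coordinates are not given, because the reference annotation follows another build. Counts were tested with edgeR 4.0.16 in R 4.3.3: filterByExpr (12643 of 24421 genes kept), TMM normalization, 1 mean per group over all 8 libraries, quasi-likelihood F tests and Benjamini-Hochberg adjustment over all genes tested, with adjusted p under 0.05 called. Contrasts were 5azadC+VX680 minus 5azadC, VX680 minus untreated, and the difference of both. SE is the log2 change divided by the square root of F. Allelic ratios were tested with edgeR on mus and cas counts, fitting library terms plus 1 mus term for each group, over the 10301 genes that averaged 10 allelic reads or more. Pooled X-linked shares were tested by exact permutation. No replicate term entered, since replicate numbers did not pair libraries (correlation of deviations 0.009 between the groups compared, -0.102 to 0.051 over all pairs). Alternatives were relative log expression scaling, no filter, DESeq2 1.42.0, limma 3.58.1 on log2 of the signal plus 1, a replicate block, a fit of the 4 libraries, and leaving out each library, so 14 in all. For groups with 0 reads the ratio was set against 3 counts over the group; with 1 to 3 reads the ratio has a 95% counting interval. Scripts were tested on simulated counts. Members and lists were chosen with earlier results of these data known. Named genes are the 15 largest rises and 15 largest falls called, averaging log2 CPM 1 or more, with no overlap between groups, up to 8 members per list by smallest p plus the most abundant per role, 6 fixed X-linked genes, and the 6 largest differences of the VX680 effect in each direction. Some genes that meet this rule are not reported here.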

Additional observations from a re-analysis of the deposited data

Results flagged for a closer look

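For 12 genes the test of the difference itself found that the effect of VX680 differed between cells with and without 5azadC, and these are the 6 largest in each direction by the naming rule. The difference of the log2 changes was 6.66 for Ptchd1, 4.45 for Ramp2, 4.40 for Sorbs2, 4.28 for Enpp2, 4.08 for Mmp13 and 4.04 for Cd93. These 6 genes are low, at under 6 CPM in each library that had 5azadC. For Oas1a, Oas3, St14, Plac8, Krt13 and Tnnt2, which had 0 reads in untreated cells, only the adjusted p of the difference can be given: 0.0179 for Oas1a, 0.00725 for Oas3, 0.00217 for St14, 0.0489 for Plac8, 0.00517 for Krt13 and 0.0172 for Tnnt2. Oas1a and Plac8 had 0.141 and 2.07 CPM with both drugs, against 17.2 and 6.45 CPM with 5azadC for Oas1a, and 2.11 and 1.104 CPM with both drugs, against 14.05 and 5.897 CPM with 5azadC for Plac8, so both were lower with the added VX680, while St14, Krt13 and Tnnt2 were higher.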

How the results depend on the processing

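None of the 3139 calls turned round in any of the 14 settings tried, and 106 to 1555 of them were lost in a setting. DESeq2 gave 1042 rises and 1536 falls, and relative log expression 1343 and 1766. No filter gave 1363 and 2140, and limma on the authors' signal 1904 and 1330. The fit of only the 4 libraries compared gave 887 rises and 1328 falls, and 910 of the 3139 calls were lost in it. In that fit 31 histone genes fell, against 46, and 21 mitotic genes rose, against 27. Leaving out single libraries gave 1629 to 3179 calls, with 571 to 1310 rises and 1058 to 1902 falls, and 948 to 2721 calls for the difference of the VX680 effect. With a replicate block 1193 rose and 1798 fell, and the block changed no direction; the numbers do not pair libraries. Allelic calls numbered 29, against 14, when genes averaging 5 allelic reads or more were admitted, and 11 to 18 without single libraries. The X-linked mus difference was 0.69 points pooled over 277 genes and 0.30 as a mean over 207 genes. It was 0.17 without genes at 10% or more in untreated cells, and 0.51 to 0.88 without single libraries. The cause of these moves was not tested. With 2 libraries a group, 5azadC libraries that stand apart limit the interferon, histone and matrix results, and few reads with 5azadC limit the largest rises.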
